A study of Mus musculus with 4 samples.

Results

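Kruppel-like factors are zinc finger transcription factors that bind GC-rich and CACCC-type DNA elements. All probe sets whose single annotated symbol was Klf followed by digits were taken, and 6 were found, 1 for each of 6 genes among the 6137 genes with a single symbol on the arrays. Klf1, Klf2, Klf3, Klf4 and Klf17 had a probe set on the first array type, and Klf10 had one on the second type, marked MB in the sample titles. A further 11 of the 17 Klf genes in the RefSeq table had no probe set so named and were not analysed here. The family was chosen by the withdrawn over tetracycline differences of Klf2, Klf4 and Klf10 in these same data, so these values are a description and no test is given for them.

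NIH3T3 cells are immortalised mouse fibroblasts, and 1 stable line made from them was compared in 2 conditions. The line expresses wild-type PKR, the double-stranded RNA-activated kinase that phosphorylates eIF2 alpha, from a promoter that tetracycline represses. The control cultures grew in DMEM with 5% fetal calf serum and 1 µg/ml tetracycline, and the other cultures had tetracycline withdrawn for 5 h so that PKR was expressed. The serum content of the withdrawn cultures, the species of the PKR transgene, and whether the line is 1 clone are not stated. Both conditions had 1 array of either type, which makes 4 arrays with no replicates.

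Some Kruppel-like factors mainly activate transcription, among them Klf1, Klf2 and Klf4, and others mainly repress it by recruiting corepressors, CtBP in the case of Klf3 and Sin3a in the case of Klf10. Klf10 was first described as an early gene induced by TGF-beta. Klf4 is known in NIH3T3 cells as a factor whose transcript is abundant in growth arrest, and Klf2 as a factor of endothelium and quiescent T cells that is switched on through the kinase ERK5 and MEF2 proteins.

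The promoters of Klf2 and Klf4, the first-type members with the largest differences, are shown because they let the proximal elements of these genes be compared. Each is the 250 bases before the RefSeq gene start in GRCm38.p6, on the gene's own strand as the RefSeq-derived table gives it. Capitals mark every match, on either strand, to a motif searched.

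Klf2 promoter, chr8:72318812-72319061, plus strand: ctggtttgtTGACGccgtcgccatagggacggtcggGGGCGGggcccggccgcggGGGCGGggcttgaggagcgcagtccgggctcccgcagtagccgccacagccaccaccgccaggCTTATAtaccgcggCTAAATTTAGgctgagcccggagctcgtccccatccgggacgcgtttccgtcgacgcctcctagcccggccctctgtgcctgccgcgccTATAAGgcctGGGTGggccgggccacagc

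Klf4 promoter, chr4:55532476-55532725, minus strand: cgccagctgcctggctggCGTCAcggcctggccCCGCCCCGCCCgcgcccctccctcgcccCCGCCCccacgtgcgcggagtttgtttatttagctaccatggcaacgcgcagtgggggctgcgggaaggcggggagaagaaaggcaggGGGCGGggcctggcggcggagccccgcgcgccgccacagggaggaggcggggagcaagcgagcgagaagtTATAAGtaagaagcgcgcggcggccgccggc

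Both promoters were rich in G and C, with 71.2% for Klf2 and 74.0% for Klf4, against a median of 52.4% over the 32851 promoters of the table. This was not particular to them, since the Klf3 promoter had 78.4%, beside 52.0% for Klf17 and 49.2% for Klf1. The GC box GGGCGG, bound by Sp1 and related factors, matched at 2 places in the Klf2 promoter and at 4 in that of Klf4, of which 2 overlap by 1 base. This motif was present in 32.7% of all promoters, and matched at 6 places for Klf3, at 2 for Klf17 and at 0 for Klf1. The CACCC motif, the element that Klf1 binds in the beta-globin promoter, matched once in the Klf2 promoter and not in that of Klf4. It was present in 52.0% of all promoters, with 5 matches for Klf3, 3 for Klf17 and 1 for Klf1. The Klf10 promoter is not shown.

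No match was found in either promoter for the cyclic AMP response element TGACGTCA (in 1.55% of all promoters), the AP-1 site TGANTCA (6.75%), the C/EBP-ATF element TTGCATCA (0.791%), TATAAA (12.4%), the SRF box (1.47%) or the kappa B site (7.25%). After the sequences had been seen, 3 further motifs were searched. The short form TGACG of the cyclic AMP response element, called the short CRE, matched once in each promoter and in 17.8% of all promoters. Its letters lie within TGACGTCA, so that both motifs overlap. The TATA variant TATAAG began 29 bases before the start in the Klf2 promoter and 31 bases before it in that of Klf4, with a second match in Klf2 on the other strand. It was present in 6.65% of all promoters, and began between 35 and 25 bases before the start in 1.08%. The MEF2 site matched once in the Klf2 promoter, 118 bases before the start, and not in that of Klf4, and was present in 2.92% of all promoters. The GC box, the short CRE and the TATA variant occurred together in 0.283% of all promoters. The promoters of Klf1, Klf3 and Klf17 held no match to the short CRE, the TATA variant or the MEF2 site. These 3 motifs were added with the Klf2 and Klf4 sequences seen. Their matches there, their low shares and the contrast with the other members are therefore a description and carry no weight as a finding.

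**Figure D1:**
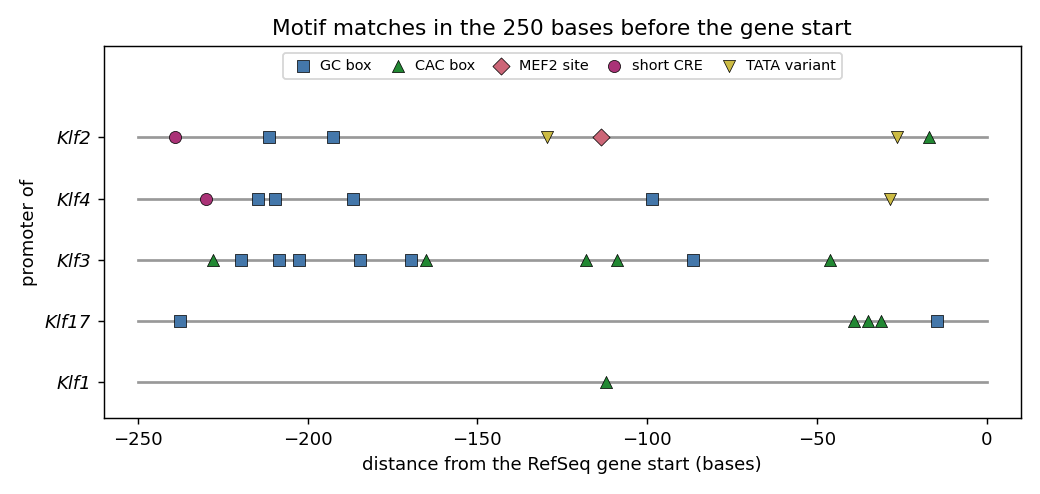
Positions of motif matches in the 250 bases before the RefSeq gene start of 5 Klf genes; the horizontal axis is the distance from the start in bases and each symbol is the centre of a match on either strand (the CAC box is the CACCC motif). The Klf2 and Klf4 rows share the order short CRE, GC boxes and TATA variant near the start, and the MEF2 site stands in the Klf2 row alone. The short CRE, the TATA variant and the MEF2 site were added after the sequences had been seen.

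The values are deposited intensities, 1 per probe set and array. Probe sets brighter than a floor on both arrays of their type are called measured here, the floor being the 25th percentile of all intensities of that type (129.7 for the first, 80.0 for MB). A stricter control floor was set at the 95th percentile of 39 control probe sets for bacterial and yeast transcripts (281.5 for the first type, 340.4 for MB). Between 74.0% and 76.0% of the non-control probe sets exceeded the floor on the 4 arrays. Differences of 2-fold or more between 2 measured intensities were counted. The spread given beside a log2 change is the robust SD of this quantity over the 200 probe sets of most similar level on the same arrays. It mixes probe noise with real differences and is no replicate error.

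All 6 Klf probe sets were above the floor on both arrays, 5 of them were brighter after withdrawal, and 3 were at least 2-fold brighter. These were Klf10, Klf2 and Klf4. Brighter to any extent were 48.9% of all measured probe sets of the first type and 52.5% of those of the MB type. Of all measured probe sets of the first type 4.36% were at least 2-fold higher, and of those of the MB type 8.46%. No Klf probe set was 2-fold lower, against 4.02% and 6.65% of all measured probe sets. The median log2 change of the 5 first-type members was 0.77, beside -0.012 over all 4402 probe sets measured on that type and 0.025 over the 4360 of the MB type. Above the control floor on both arrays, 2 of 4 members, Klf4 and Klf10, were 2-fold higher, against 1.88% and 1.97% of all probe sets of the first and the MB type above it, and none was 2-fold lower, against 1.29% and 0.767%. The members were selected with these differences known, so the counts describe them and carry no weight as a comparison with other genes.

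**Figure D2:**
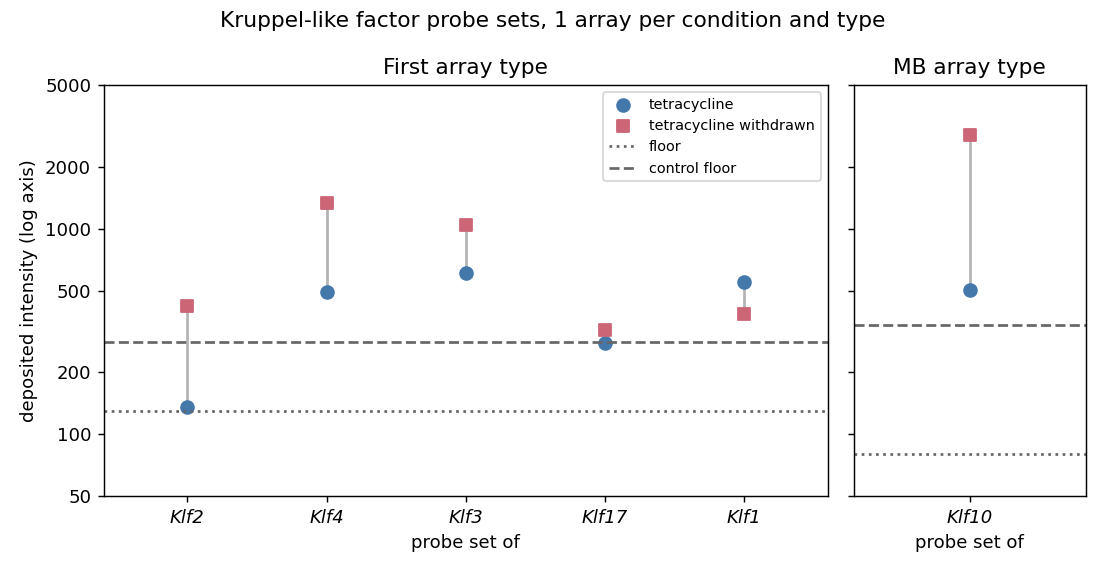
Deposited intensity, on a log axis, of the 6 Klf probe sets with tetracycline (circles) and after its withdrawal (squares), 1 array each; the dotted line is the floor and the dashed line the control floor of each array type. Klf2 starts just above the floor at 135.6, whereas Klf4 and Klf10 lie above the control floor in both conditions.

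Klf10, the Sin3a-recruiting repressor, had the largest log2 change among the 6 members, measured on the MB type. Its probe set Z36270_s_at read 504.1 on the array with tetracycline and 2864.3 on that of the withdrawn culture, a 5.68-fold difference. The log2 change of 2.51 was 6.27 times the spread of 0.40, and 0 of the 200 probe sets nearest in level had a change as large. Over the whole MB type it stood at position 15 of 4360 measured probe sets ordered by upward change, and at position 2 of 2738 above the control floor. The higher positions at the main floor were thus held mostly by probe sets with at least 1 dim reading. On the MB type 17 of the 39 controls exceeded the main floor with tetracycline and 14 after withdrawal. The highest control read 391.8 with tetracycline and 1212.8 after withdrawal. Each Klf10 reading was above the highest control of its own array, but 504.1 was below 1212.8.

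Klf4, the growth arrest and differentiation factor, had the next clearest difference. Its probe set u20344_s_at read 492.1 with tetracycline and 1332.1 after withdrawal, which is 2.71-fold. The log2 change of 1.44 was 3.72 times the spread of 0.39, and 1 of the 200 nearest probe sets had a larger one. It stood at position 65 of 4402 measured probe sets of the first type and at position 12 of the 3555 above the control floor. Both readings were above 447.5, the highest reading of the 39 controls on these arrays.

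Klf2, the endothelial and T cell factor, had a larger ratio than Klf4 from dimmer readings. Its probe set U25096_s_at read 135.6 with tetracycline, 1.05 times the floor and 0.482 times the control floor, and 419.4 after withdrawal. The log2 change of 1.63, or 3.09-fold, was 1.67 times the spread of 0.97 at this level, and 7 of the 200 nearest probe sets had a change at least as large. With the control floor in place of the reading with tetracycline, the ratio would be 1.49-fold. This takes the single reading of 419.4 as exact, so it sets no minimum difference. The withdrawn reading was above 389.1, the highest control reading on its own array, but below 447.5, that of the array with tetracycline. On the first type 9 of the 39 bacterial and yeast controls exceeded the main floor with tetracycline and 7 after withdrawal, so a reading near it is not separated from background.

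Klf3, the CtBP-binding repressor, was brighter after withdrawal without reaching 2-fold. Its probe set U36340_s_at read 610.9 with tetracycline and 1040.1 after withdrawal. The log2 change of 0.77, or 1.70-fold, was 1.96 times the spread of 0.39, and 10 of the 200 nearest probe sets had a change at least as large. At a limit of 1.5-fold Klf3 would join the other 3 members, and 4 of 6 would be counted, against 12.4% of all measured probe sets of the first type and 17.6% of those of the MB type. None was lower by 1.5-fold, against 10.7% and 12.9%. At a limit of 3-fold Klf10 and Klf2 would be left, against 1.04% and 3.12%.

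Klf17, a factor described in germ cells, and Klf1, the erythroid activator of beta-globin, had differences no larger than about the spread. The Klf17 probe set aa547031_s_at read 278.6 and 323.3, a log2 change of 0.21 against a spread of 0.80. With tetracycline it was below the control floor. The Klf1 probe set m97200_s_at was the only member that was dimmer after withdrawal, at 550.6 with tetracycline and 384.9 without. The log2 change of -0.52 was about as large as the spread of 0.51, and 40 of the 200 nearest probe sets had a change at least as far down.

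**Figure D3:**
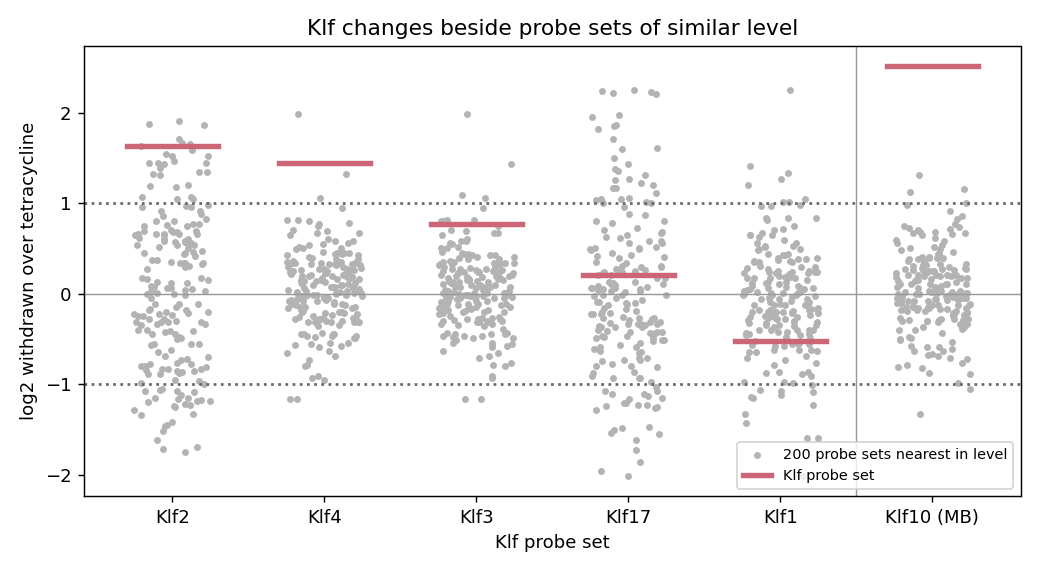
Log2 change (withdrawn over tetracycline) of each Klf probe set, drawn as a bar, over those of the 200 probe sets closest to it in level on the same arrays, drawn as points; dotted lines mark 2-fold and the vertical line separates the MB type. Klf10 lies above all its points and Klf4 above all but 1, while Klf17 and Klf1 lie within theirs.

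In the order of log2 change on the first type, Klf2 and Klf4 differed by 0.19, well within the larger of their spreads (0.97). Klf4 and Klf3 differed by 0.67, beside a spread of 0.39 at their level. Klf3 and Klf17 differed by 0.55, and Klf17 and Klf1 by 0.73, both less than the spread of 0.80 for Klf17. Since this spread is no replicate error and belongs to single changes, not to their differences, none of these neighbours can be said to differ. Klf10 was left out of this order, since its arrays were of the other type.

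All 6 Klf probe sets carried the suffix _s_at, as did 55.1% and 56.4% of the non-control probe sets of the first and the MB type. In the Affymetrix naming scheme it marks probes that can be shared by several transcripts. Klf genes resemble each other in the zinc finger region, and whether any of these probe sets detects a relative was not tested.

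The probe sets most like each 2-fold changed Klf probe set were found by the distance between log2 intensities over the 2 arrays of a type, among probe sets with a single symbol above the control floor. For Klf4 the nearest of 3188 were Tanc1 (538.6 and 1346.7, distance 0.13), Mettl17 (551.0 and 1400.9, distance 0.18) and the transcription factor Gata2 (503.3 and 1111.6, distance 0.26). For Klf10 the nearest of 992 on the MB type were the anion exchanger Slc4a1 (578.3 and 1730.2, distance 0.75), Arhgef2 (764.7 and 1900.2, distance 0.84) and the AP-1 subunit Jun (819.8 and 1621.8, distance 1.08). These distances were larger than for Klf4, but came from a smaller pool. A single symbol was carried by 2001 of 6534 MB probe sets, against 5541 of 6523 of the first type. Distances on the 2 types are therefore not comparable. For Klf2 the nearest were Ppp5c (distance 1.09), Dennd4c and Cpne6 (both at distance 1.10), which had smaller changes of 0.85, 0.39 and 0.30. With tetracycline Klf2 itself lay below the control floor that these probe sets had to exceed. Likeness over 2 arrays means only a similar pair of readings.

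Among regulators upstream of Klf genes, 14 of 18 listed genes had a probe set and 14 of their 18 probe sets were measured, of which 3 were at least 2-fold higher and 1 was 2-fold lower, all 4 on the first type, where 4.36% and 4.02% of all measured probe sets were. The median log2 change was 0.34. Egr1, a serum- and stress-induced zinc finger factor, read 1475.5 with tetracycline and 3665.0 after withdrawal, a log2 change of 1.31 against a spread of 0.36. It had the highest reading of the list, although readings of different probe sets do not rank transcripts. Smad3, a mediator of TGF-beta signals, read 159.7 and 395.7, from below the control floor. Among the MEF2 genes Mef2a read 285.9 and 573.7, a difference of 2.01-fold with a spread of 0.65, whereas Mef2b read 609.5 and 168.2, a log2 change of -1.86 that ended below the control floor. The measured Mef2d probe sets went both ways, with 0.86 from just below the control floor (spread 0.8) and -0.44 above it on both arrays (spread 0.38). The ERK5 gene Mapk7 read 1195.0 and 1473.6, a log2 change of 0.30 against a spread of 0.37. Of the TGF-beta receptors Tgfbr2 read 182.2 and 169.8, and Tgfbr1 read 149.4 with tetracycline and 9.1, below the floor, after withdrawal. Each of these receptor readings was below the control floor, and 149.4 was close to the main floor of 129.7.

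Of the listed cofactors of Klf proteins 8 of 11 probe sets were measured, with a median of 0.05, and 1 was 2-fold lower, beside 4.02% of all measured probe sets of the first type, or 1.29% above the control floor. This was Sin3a, the corepressor that Klf10 recruits, which read 921.4 with tetracycline and 397.7 after withdrawal, a log2 change of -1.21 against a spread of 0.49. The CtBP corepressors used by Klf3 did not reach 2-fold, with readings of 3457.2 and 3180.6 for Ctbp1 and of 412.7 and 799.4 for Ctbp2. The brightest cofactor was the LIM protein gene Fhl3, at 4761.7 and 5956.1.

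Of the ubiquitin ligase genes 4 had a measured probe set, all of them brighter after withdrawal, beside 48.9% and 52.5% of all measured probe sets of the first and the MB type, and 1 was 2-fold higher, beside 4.36% and 8.46%. This was Siah1a, whose human counterpart binds and destabilises KLF10, with readings of 424.0 and 925.6 and a log2 change of 1.13 against a spread of 0.48. The related Siah1b was the brightest of them at 851.3 and 1020.2, a change of 0.26. Of the Sp factors only Sp1 was measured, with log2 changes of 0.25 and -0.18 on its 2 probe sets, the brighter of which read 419.7 and 498.7.

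Among reported target genes of Klf proteins none of 21 measured probe sets, from 18 genes, reached 2-fold in either direction, and the median log2 change was -0.11. Of all measured probe sets 4.36% (first type) and 8.46% (MB type) were 2-fold higher and 4.02% and 6.65% lower, so a count of 0 among 21 is near the background. The cell cycle inhibitor Cdkn1a, which Klf4 and Klf6 are known to activate, differed by 0.10 (first type) and 0.41 (MB type) on the log2 scale, against spreads of 0.42 and 0.39. Thbd, the thrombomodulin gene that Klf2 activates in endothelium, read 1628.7 and 2292.5, a change of 0.49 against a spread of 0.32. The lymphocyte receptor gene S1pr1, a Klf2 target in T cells, was dimmer after withdrawal at 613.2 and 312.5, a change of -0.97 against a spread of 0.52. Acta2, smooth muscle actin, was the brightest of the list at 37840.4 and 28038.9. The probe sets of the cell cycle inhibitor Cdkn1b disagreed in level, with 2229.1 and 1950.5 on the first type and readings below the floor on at least 1 array for both MB probe sets.

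**Figure D4:**
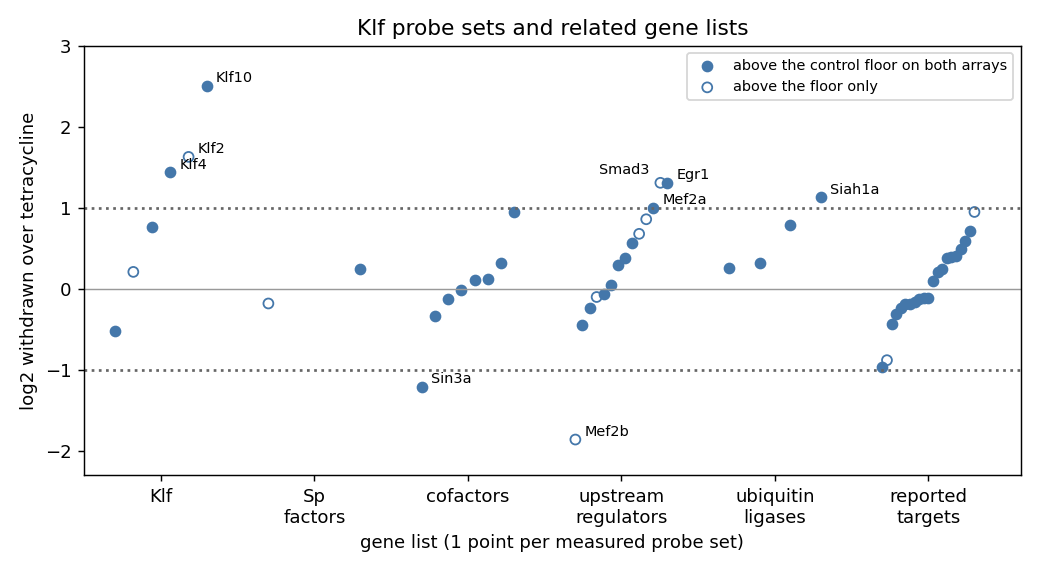
Log2 change (withdrawn over tetracycline) of the measured probe sets of the Klf family and of 5 lists of related genes, 1 point per probe set in order of change; filled points were above the control floor on both arrays and open points only above the main floor. Named points reached 2-fold.

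The only probe set of Eif2ak2, the mouse gene of PKR, read 643.3 with tetracycline and 663.6 after withdrawal, and whether it detects the transgene is not known. The labelled cell type was checked against marker genes. Of 13 fibroblast markers 12 were measured, with readings of 12981.7 and 11404.4 for vimentin (Vim) and of 18329.2 and 16297.1 for Thy1, and none of their 18 measured probe sets reached 2-fold. Their median log2 change was -0.27. All 18 were above the control floor on both arrays. Of all probe sets above it, 1.88% (first type) and 1.97% (MB type) were at least 2-fold higher, and 1.29% and 0.767% lower. A count of 0 among 18 is near these shares. Lum was above the floor with tetracycline only. Of the endothelial markers, given because Klf2 is an endothelial factor, Pecam1, Cdh5 and Tek were below the floor on both arrays. Kdr read 299.3 and 416.7, and Tie1 read 547.8 with tetracycline and 122.4 after withdrawal. Tie1 was thus 4.48-fold lower, and below the control floor in the second reading. At least 2-fold lower were 6.65% of all measured probe sets of its type, MB. The endothelial list summed to 226.6 with tetracycline and 227.2 after withdrawal (first type) and to 847.1 and 539.1 (MB type). Every first-type reading in this sum was below the floor. Of the epithelial markers, given because Klf4 acts in epithelia, 2 of the 6 genes on the arrays were measured, on 3 probe sets with a median log2 change of -0.4. Krt14 was 2.22-fold higher on 1 first-type probe set (243.1 and 539.6), from below the control floor. At least 2-fold higher were 4.36% of all measured probe sets of that type. Krt8 was dimmer on both its probe sets. It changed by -0.4 on the first type (642.3 and 487.4, above the control floor) and by -0.45 on the MB type (178.9 and 130.8, below it). The epithelial list summed to 1049.5 and 1235.5 (first type) and to 257.0 and 458.8 (MB type). Every MB reading in this sum was below the control floor, among them Cdh1 at 50.4, also below the main floor, and 270.5. Of the leukocyte markers 4 probe sets were measured, with a median log2 change of -1.05. At least 2-fold lower were 2 of them, beside 4.02% and 6.65% of all measured probe sets of the first and the MB type. These were Cd79b at -1.13, with its second reading below the control floor, and Cd3g at -1.33, with both readings below it. The other 2, above the control floor on both arrays, were Ptprc at -0.96 and Lyz2 at 0.38. This list summed to 1675.1 and 1294.4 (first type) and to 258.2 and 116.1 (MB type), with every MB reading below the control floor.

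Erythroid markers are given beside Klf1. All 4 of those on the arrays were measured, on 6 probe sets of which 3 were 2-fold higher, all on the MB type, where 8.46% of all measured probe sets were. Above the control floor 1 of 4 was, since Gata1 had both readings below it and the Hba-a1 probe set that was higher had 1. The list summed to 1836.2 and 1503.8 (first type) and to 3507.5 and 4767.6 (MB type). Probe sets of one gene disagreed. Slc4a1 had a log2 change of -0.29 (first type) and of 1.58 (MB type), and the alpha-globin gene Hba-a1 had changes of 1.26 and -0.15 on its 2 probe sets. The part of any of these cell type markers in the Klf values was not tested. In RNA from whole cultures, fewer cells with a transcript and less of it per cell cannot be told apart. The condition and the array cannot be told apart either, nor can withdrawal of tetracycline and expression of PKR.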

How the data were processed

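Total RNA was measured on 4 arrays. The tables the authors deposited give each probe set a linear intensity on each array, and how these were computed from the scans is not stated. Deposited intensities were used as they stand, since their 2% trimmed means were equal to 3 digits within an array type (1000.0 and 997.0). The 61 control probe sets of each type were left out, leaving 6523 and 6534. Symbols came from the platform annotation, updated through Entrez identifiers with the RefSeq table of GRCm38.p6. Arrays of different types were never averaged, and with 1 array per condition and type no p-value was computed. The number of arrays limits the precision. Named were all Klf probe sets, the members of 5 related lists past 2-fold and the brightest member of each list. Also named were the 3 probe sets nearest to each changed Klf by distance over both log2 intensities. Other related genes and markers were named after their values were seen. The members, lists and settings were chosen with earlier results of these data known. Promoters are RefSeq's, in GRCm38.p6. Counting was tested on simulated arrays. Tools were scipy 1.17.1, pandas 2.3.3, matplotlib 3.10.9, statsmodels 0.14.6 and numpy 2.4.6 under Python 3.11.15.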

Additional observations from a re-analysis of the deposited data

How the results depend on the processing

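The number of Klf probe sets higher by at least the fold limit was 3 in 6 of the 11 alternatives run and between 2 and 4 in the others. This limit was 2-fold, except in the alternatives at 1.5-fold, which gave 4, and at 3-fold, which gave 2. Several alternatives could not change the count, so their agreement carries no weight. The trimmed means were already equal to 3 digits, each gene had 1 probe set under an unchanged symbol, and all members already exceeded the main floor before it was lowered. The number lower by at least the limit was 0 in all 11. Klf2 was the member whose count depended on the floor. Its log2 change was 1.74 with quantile normalization and 1.63 at the higher floor (259.4) and at the control floor, but its reading with tetracycline was below the floor in these 3 settings, so it was not counted. Klf10 kept a log2 change between 2.44 and 2.51 over the 4 scalings, and Klf4 one between 1.40 and 1.45. The other members moved by less than their spread under these scalings, Klf3 between 0.74 and 0.78, Klf17 between 0.21 and 0.29 and Klf1 between -0.52 and -0.48. No paired analysis was possible because each condition has 1 array of each type. With 1 array per condition no replicate could be left out. Signal over background limits the Klf2 and Klf17 values most, since each has a reading below the control floor.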
